A study of Mus musculus with 24 samples.

Results

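The 47 genes described here encode the machinery that licenses, opens and copies DNA in S phase, together with enzymes that supply its nucleotides and factors that restore chromatin behind the fork. They were chosen by name, from the role of their products, among the 55421 gene rows of a count table, and each matched 1 row. RNA was sequenced from small intestinal crypts of 8 mice, sorted into stem, transit-amplifying (TA) and Paneth cell fractions, so that every animal gave 3 libraries and each of the 6 groups held 4. The 4 control animals (het: BN44, BO27, BO58 and BP03) carried Setd1aFC/+; Lgr5-eGFP-CreERT2. The 4 knockout animals (hom: BN45, BO25, BO57 and BP04) carried Setd1aFC/FC; Lgr5-eGFP-CreERT2. All animals, controls included, were given tamoxifen, 1 mg daily on 3 days in a row, and sorting followed 4 days after induction. Setd1a encodes a histone H3K4 methyltransferase. CreERT2 is expressed from the stem cell gene Lgr5, so recombination starts in stem cells, and TA or Paneth cells lose the allele only where they descend from a recombined cell. How many cells of each fraction had lost Setd1a is unknown, no age is stated for the animals, and control cells may have lost 1 Setd1a copy.

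Replication origins are licensed in G1, when the origin recognition complex, Cdc6 and Cdt1 load the Mcm2-7 helicase onto DNA. In S phase Cdc45 and the GINS complex activate the helicase, primase and DNA polymerase alpha start each strand, and polymerases delta and epsilon extend it while held by the Pcna clamp, which the Rfc complex loads. Many of these genes are transcribed under E2F factors as cells pass from G1 into S. In the crypt, stem cells at the base and TA cells above them divide, whereas mature Paneth cells are postmitotic and secrete antimicrobial proteins.

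Because many of these genes are classical E2F targets, the promoter windows of RefSeq genes (GRCm38.p6) were searched for E2F letters on both strands. The windows ran from 250 bases before to 50 bases after an annotated start. The letters were TTTCCCGC, TTTGGCGC, TTTCGCGC and TTTGCCGC. Windows were given for 39 of the 47 genes, and 18 of these 39 held a match (46.2%), against 704 of 27025 genes in the whole table (2.6%). Counted by window, 18 of 46 held one (39.1%), against 2.26% of 32851. CCAAT, the letters of another common promoter box, occurred on either strand in 23 of the 39 genes (59.0%), against 41.06% of all genes. A match is a description of the letters and does not show that a factor binds. Each E2F word searched holds the letters CG, and the genes compared were not matched for how often CG occurs. The windows of 4 genes that recur in the results are printed 5′ to 3′ on the strand of the gene, with E2F letters in capitals. They are Cdc6, which had the smallest p of the 47 in the TA genotype comparison, Mcm6, the helicase subunit shown in every comparison, Rrm2, a member called between stem and TA cells, and Fen1, which had the largest drop in Paneth libraries of control animals.
Cdc6 (chr11:98907901-98908200, plus strand): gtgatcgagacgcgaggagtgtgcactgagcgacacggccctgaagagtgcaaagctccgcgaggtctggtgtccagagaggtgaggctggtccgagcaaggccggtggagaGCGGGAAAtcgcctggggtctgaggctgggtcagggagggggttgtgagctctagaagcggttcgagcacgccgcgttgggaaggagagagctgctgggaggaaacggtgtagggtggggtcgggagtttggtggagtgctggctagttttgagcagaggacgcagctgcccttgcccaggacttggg
Mcm6 (chr1:128359656-128359955, minus strand): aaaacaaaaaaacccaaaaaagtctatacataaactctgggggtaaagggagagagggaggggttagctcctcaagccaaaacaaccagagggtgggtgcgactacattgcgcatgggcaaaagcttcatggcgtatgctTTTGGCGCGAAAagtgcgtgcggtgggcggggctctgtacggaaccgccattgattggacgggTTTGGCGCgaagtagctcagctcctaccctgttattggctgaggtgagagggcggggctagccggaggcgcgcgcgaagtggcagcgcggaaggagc
Rrm2 (chr12:24708004-24708303, plus strand): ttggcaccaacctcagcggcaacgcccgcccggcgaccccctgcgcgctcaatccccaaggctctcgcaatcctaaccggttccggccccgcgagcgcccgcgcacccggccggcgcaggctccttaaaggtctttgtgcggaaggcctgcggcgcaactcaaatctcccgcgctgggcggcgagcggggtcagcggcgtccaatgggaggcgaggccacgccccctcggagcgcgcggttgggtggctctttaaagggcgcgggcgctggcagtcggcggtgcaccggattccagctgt
Fen1 (chr19:10203872-10204171, minus strand): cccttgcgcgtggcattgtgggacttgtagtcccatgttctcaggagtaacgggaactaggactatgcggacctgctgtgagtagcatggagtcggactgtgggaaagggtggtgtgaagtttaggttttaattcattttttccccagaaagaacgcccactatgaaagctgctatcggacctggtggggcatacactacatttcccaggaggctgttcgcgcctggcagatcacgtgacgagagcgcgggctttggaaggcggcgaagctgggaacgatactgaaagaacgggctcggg
The Cdc6 window held 1 match, beginning 138 bases before the start. In Mcm6 there were 3, beginning 110, 106 and 47 bases before the start, of which the first and second overlap and print as 1 capital run. The Rrm2 window held none of the letters searched, and neither did either of the Fen1 windows in the table. Members with the letters in a window and members without them are set side by side for 2 of the comparisons reported next. Their median log2 fold changes were -1.48 (n = 18) and -1.61 (n = 21) for Paneth against TA libraries of control animals, and -0.18 and -0.29 for hom against het TA libraries. The ranges of both sets overlapped in each comparison.

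The libraries held 24.73 M to 47.05 M counts. All 47 genes passed the filter on low counts in every comparison, and no library had 0 counts for any of them. Levels are CPM, that is counts divided by library size on a common scale, with library sizes adjusted by the trimmed mean of M values (TMM) over all 24 libraries. Fen1 was the lowest, with 3 to 299 counts. Fragments assigned to more than 1 gene were dropped, and 84.2% of the exonic bases of Fen1 overlap Gm10143 or Tmem258. The same holds for 67.3% of Gins2 (with Gse1) and 52.5% of Chaf1a (with Ubxn6), so levels of these 3 genes are uncertain. Reads of Pcna and Tyms may be shared with annotated pseudogenes. Setd1a itself, summed over all exons, stood in stem cells at 5.63 ± 1.58 (het) and 5.18 ± 1.49 CPM (hom; SD, n = 4). The TA values were 4.86 ± 1.42 and 5.27 ± 0.939, and the Paneth values 9.72 ± 4.12 and 6.23 ± 1.05. Exons were summed, so this value does not check the deletion or the labels. Lists of marker genes followed the sort: 7 stem markers summed to 27339 to 45560 CPM in stem and 4909 to 10136 in TA libraries, and 8 Paneth markers took 8.18% to 45.9% of all counts in Paneth libraries and at most 0.611% elsewhere. Paneth libraries also carried tuft cell markers (7 of 7 detected, summed to 1493 to 2907 CPM, against at most 8.95 in the other fractions, where Il25 was at 0), enteroendocrine markers (8 of 8, 3485 to 7753 against at most 309) and immune markers (86.6 to 233 against at most 4.97, with 2 to 6 of the 6 genes above 0 in a Paneth library). Values given for Paneth libraries therefore belong to a sorted fraction that holds RNA of several cell types, whose part in the results was not tested.

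Replication genes were far lower in the Paneth fraction than in either dividing fraction. In control animals 44 of the 47 fell between TA and Paneth libraries at an adjusted p below 0.05 (edgeR quasi-likelihood test, Benjamini-Hochberg over all genes), where 11.8% of 16177 genes tested were lower. The median log2 fold change was -1.54, or 2.90-fold lower, against 0.08 over all genes tested. In 45 of the 47 every Paneth library lay below every TA library, against 15.6% of all genes. In bulk libraries, fewer replicating cells and less of these RNAs per cell cannot be told apart. The mitosis list moved alongside: its 14 genes, such as Mki67 and Top2a, summed to 497 to 819 CPM in het Paneth libraries and 1814 to 1993 in het TA libraries.

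**Figure D1:**
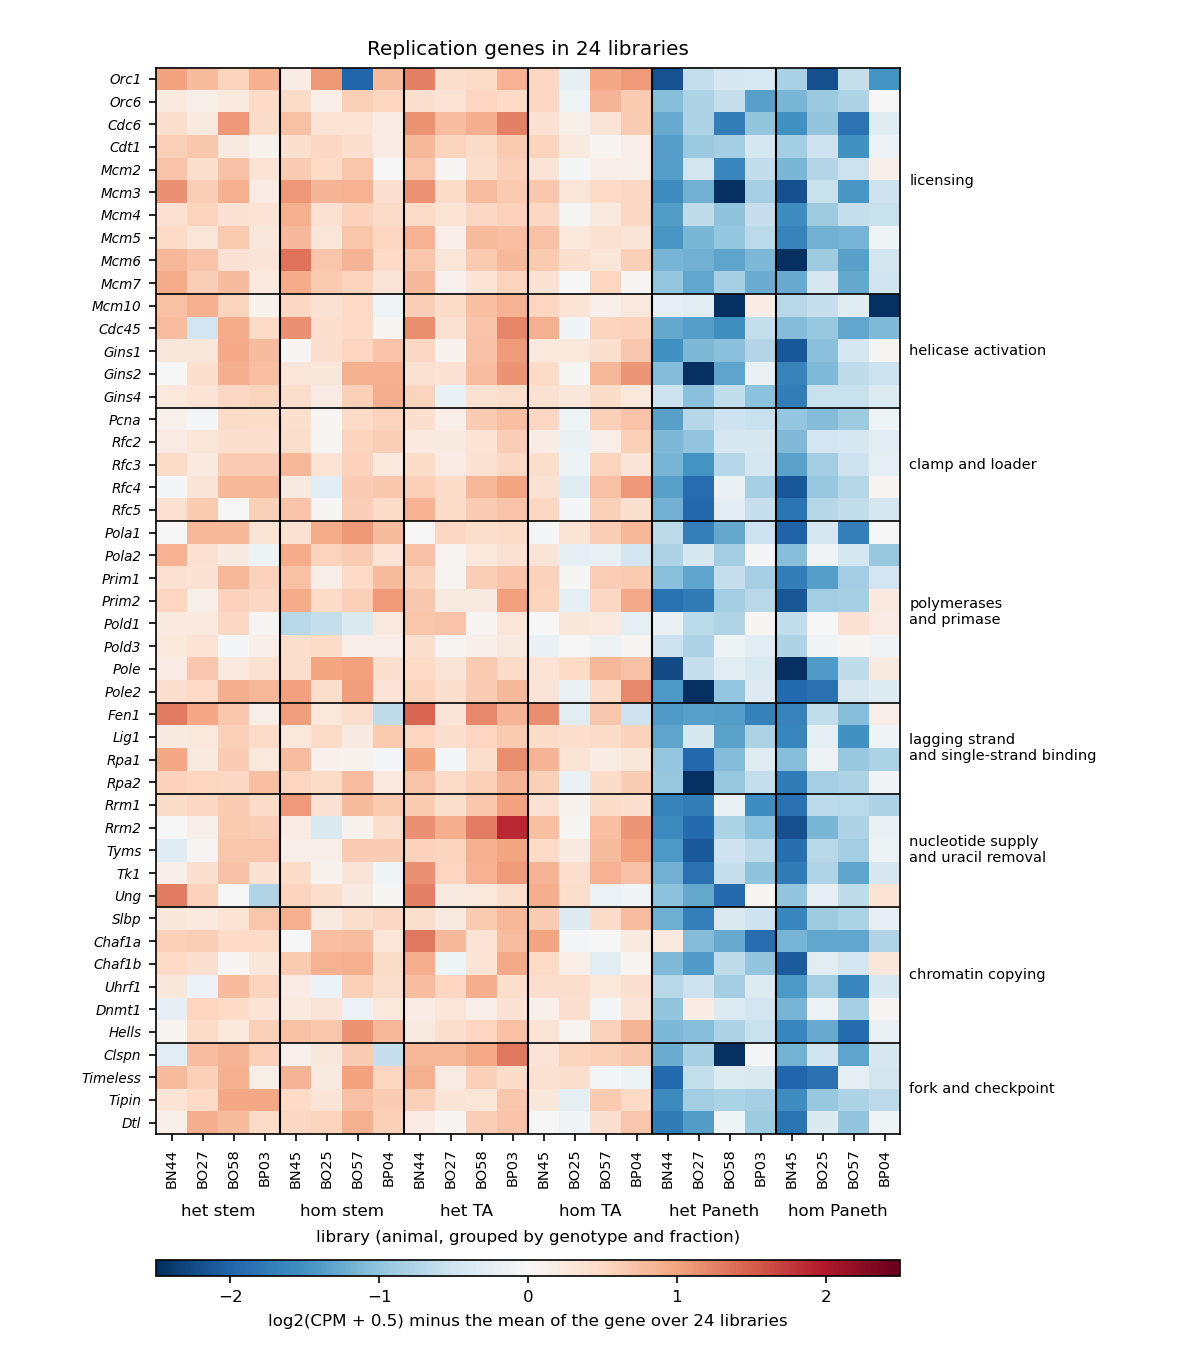
Level of each of the 47 replication genes (rows, grouped by role) in each of the 24 libraries (columns, 4 animals per group). Colour gives log2(CPM + 0.5) minus the mean of that gene over all libraries, so that blue cells mark libraries below the mean of the gene. The 8 Paneth libraries on the right hold most of the blue cells, and within them BN45 is the darkest and BP04 the palest of the hom animals.

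Licensing factors fell as a block in that comparison, 10 of 10, with log2 fold changes from -2.23 to -1.34. Mcm6 stood at 322, 247, 312 and 348 CPM in the het TA libraries of BN44, BO27, BO58 and BP03, and at 88.4, 86.8, 79.6 and 91.5 in their Paneth libraries. The groups were far apart and the Paneth values nearly equal, and the fall was -1.81 ± 0.17 (log2 fold change ± SE, adjusted p = 9.1e-05 by edgeR), or 3.50-fold. Cdc6, which loads the helicase, stood at 38.9, 30.4, 33.4 and 42.6 CPM in TA and at 6.97, 10.1, 4.93 and 8.63 in Paneth libraries. Its groups did not overlap either, and it fell by 2.23 on the log2 scale (SE 0.26, adjusted p = 0.000321). Orc1, the largest subunit of the origin recognition complex, fell less certainly: its log2 fold change was -1.66 (adjusted p = 0.0322), and with the animal as replicate block its adjusted p was 0.0691.

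Among the factors that activate the helicase, 4 of 5 fell: Cdc45 had a log2 fold change of -2.10, Gins2 -1.81, Gins1 -1.75 and Gins4 -1.10. Mcm10 did not pass, at -1.14 ± 0.54 (adjusted p = 0.135), and its Paneth values were 12.7, 11.98, 1.46 and 16.7 CPM. The library of BO58 was thus the low one of the 4, and all 4 lay below the lowest TA value of 20.8. All 5 genes of the clamp and its loader fell, from -1.05 (Rfc2) to -1.63 (Rfc4). Pcna stood at 181, 151, 210 and 226 CPM in TA and 52.6, 81.5, 93.5 and 91.8 in Paneth libraries. That fall was -1.24 ± 0.23 (adjusted p = 0.003), with no overlap between the groups.

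Of the 8 polymerase and primase genes 7 fell, from -1.80 for Prim2, the large primase subunit, to -0.60 for Pold3, an accessory subunit of polymerase delta. The call of Pold3 rested on a narrow margin (adjusted p = 0.0429, and 0.0511 with the animal as replicate block). Pold1, the catalytic subunit of polymerase delta, did not pass: it stood at 20.4, 20.8, 12.9 and 15.4 CPM in TA and 10.8, 7.62, 7.16 and 12.97 in Paneth libraries, with overlapping groups (-0.83 ± 0.29, adjusted p = 0.0536). All 4 genes of lagging strand joining and single-strand binding fell, from -1.45 for Lig1, the ligase that seals Okazaki fragments, to -3.54 for Fen1, the flap nuclease that trims them. Fen1 had 0.372, 0.413, 0.402 and 0.224 CPM in het Paneth against 5.94, 2.43, 4.85 and 3.69 in het TA libraries. These values rest on as few as 5 counts in a het Paneth library, and the SE of its fall was 0.55.

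Genes of nucleotide supply and uracil removal fell in 5 of 5. The largest change was that of Rrm2, the small subunit of ribonucleotide reductase, which makes deoxynucleotides. It stood at 200, 171, 220 and 334 CPM in het TA and at 29.5, 23.1, 51.9 and 44.3 in het Paneth libraries. The lowest TA library lay far above the highest Paneth library, and the fall was -2.61 ± 0.31 (adjusted p = 0.000376), or 6.10-fold. Tk1, the thymidine salvage kinase, had -2.01, and Rrm1, Tyms and Ung had -1.80, -1.79 and -1.54. In chromatin copying 5 of 6 fell, from -1.78 (Chaf1a) to -1.27 (Uhrf1). The exception was Dnmt1, the maintenance DNA methyltransferase, which stood at 38.5, 41.1, 37.3 and 42.6 CPM in TA and 16.5, 37.7, 26.0 and 23.6 in Paneth libraries. BO27 reached the TA range there, and the difference was -0.60 ± 0.24 (adjusted p = 0.0886). All 4 fork and checkpoint genes fell, from -1.30 (Timeless) to -2.02 (Clspn, the claspin adaptor through which ATR activates Chk1). Timeless had an adjusted p of 0.064 with the animal as replicate block.

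**Figure D2:**
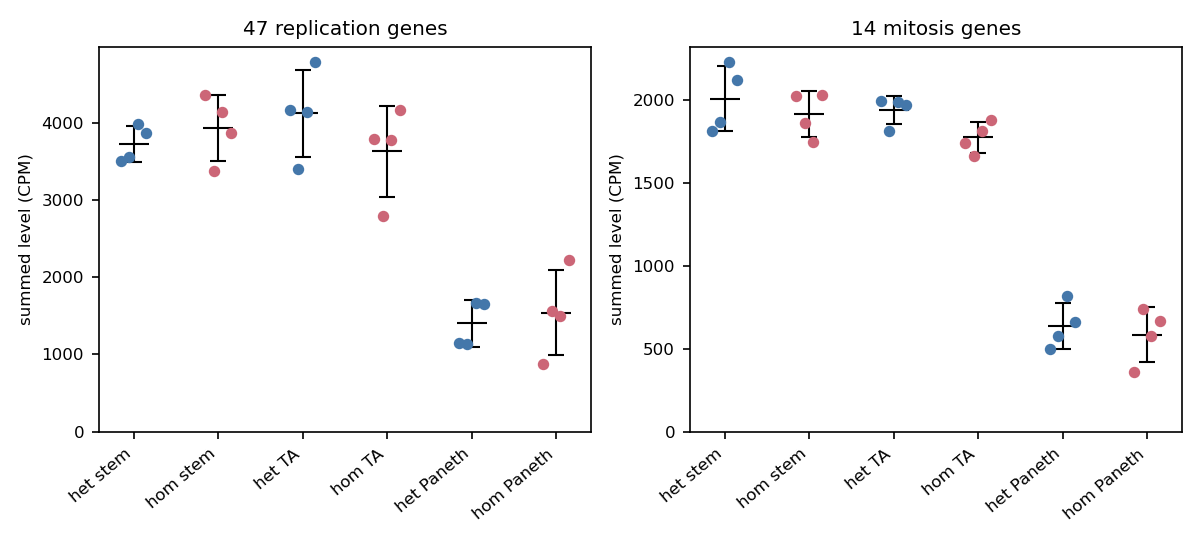
Summed level (CPM) of the 47 replication genes (left) and of 14 mitosis genes (right) in each library. Points are the 4 animals of a group (het blue, hom red), and the black mark and bar give mean and SD. The replication genes lie between 883 and 2224 CPM in the 8 Paneth libraries and between 2796 and 4788 in the 16 stem and TA libraries.

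Against stem libraries of control animals, 39 of the 47 were lower in Paneth libraries (11.0% of 16230 genes tested were lower), with a median of -1.44. In 41 of 47 the groups did not overlap, against 15.3% of all genes. Mcm6 fell by 1.75 (SE 0.19, adjusted p = 0.000166), and log2 fold changes were -3.33 for Fen1, -2.19 for Mcm3 and -1.82 for Pole2, a subunit of polymerase epsilon. Rrm2 (-1.63 ± 0.28) and Pcna (-0.996 ± 0.22) fell as well. Pold3 had the smallest difference, at -0.56 ± 0.20 (adjusted p = 0.0627). The comparison shares its Paneth libraries with the TA comparison, so both are 2 views of the same 4 libraries. Scaling mattered for the sizes. Paneth markers took from 8.18% (BO58) to 45.9% (BN45) of the counts of a Paneth library, and their part in the scaling was not tested. With total counts in place of TMM the median of all genes shifted by -0.49 to -0.66 in the 4 comparisons of Paneth with another fraction. On that scale 47 of 47 members were lower against both TA and stem in het, with medians of -1.97 and -1.91, and 41 and 43 of 47 in hom. The calls over all genes changed their balance with it: for Paneth against TA in het from 2813 higher and 1908 lower to 1513 and 3470, and against stem from 2809 and 1791 to 1497 and 3448. In hom they went from 2635 and 1973 to 1071 and 3778, and from 2819 and 2136 to 1223 and 3616.

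In knockout animals 34 of the 47 were lower in Paneth than in TA libraries (12.2% of 16161 genes tested), with a median of -1.20, and 38 were lower than in stem libraries (13.2% of 16226), with a median of -1.27. These counts fell when single animals were left out, as did those over all genes. The members called were 16 and 25 without BN45 and 14 and 22 without BO57, while the medians without these animals lay between -1.26 and -1.02. Over all genes, those lower than in TA libraries went from 1973 to 1250 without BN45 and 922 without BO57. Those lower than in stem libraries went from 2136 to 1303 and 1310. In control animals calls were lost as well. Against TA without BN44 these were Clspn, Dtl, Gins2, Orc1, Pola2, Pold3, Pole, Pole2, Rfc5, Rpa1, Timeless and Ung. Over all genes, those lower than in TA libraries went from 1908 to 1008 in that fit. Orc1, Pole and Timeless lost their calls whichever control animal was left out, and Chaf1a without BO27, BO58 or BP03. All 47 values against TA stayed negative in each of these fits of control animals. Mcm6 stood at 33.9, 108, 77.4 and 145 CPM in the Paneth libraries of BN45, BO25, BO57 and BP04, against 316, 264, 245 and 304 in their TA libraries. BN45 was low and BP04 high, and all 4 lay below the TA libraries, and the fall was -1.63 ± 0.34 (adjusted p = 0.00672). Among the largest falls called from TA were those of Orc1 (-2.01, adjusted p = 0.019), Tk1 (-1.69) and Chaf1a, the large subunit of the histone chaperone CAF-1 (-1.69). Pold1 had no fall: it stood at 7.95, 12.3, 16.1 and 14.4 CPM in Paneth and 12.5, 15.2, 14.7 and 10.5 in TA libraries (-0.04 ± 0.25, adjusted p = 0.923). Against stem libraries it was the only one of the 47 with a positive value (0.37 ± 0.30, adjusted p = 0.375), which turned to -0.16 with total counts. Pcna and Rrm2 fell from TA libraries, by -1.15 ± 0.24 and -1.62 ± 0.36 (adjusted p = 0.00731 and 0.0094). Against stem libraries the largest falls were those of Mcm6 (-2.01 ± 0.38), Hells, a chromatin remodeller needed for DNA methylation (-1.92 ± 0.34, adjusted p = 0.00233), and Mcm3 (-1.86 ± 0.34). Within animals, 40 of the 47 genes were lower in the Paneth than in the TA library in all 8 animals, and 39 were lower than in the stem library in all 8. The share of all genes with these patterns was not counted.

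Few replication genes were called between the stem and TA fractions: without a block, Rrm2 in control animals and none in knockout animals. With the animal as block, Rrm2, Tk1 and Pola2 were called in knockout animals. Markers of other cell types moved with these fractions: 7 goblet markers summed to 116 to 1101 CPM in stem and 5409 to 15921 in TA libraries, and 8 enterocyte markers to 791 to 1521 and 1367 to 2729. All of these genes were detected in each group, and their part in the results was not tested. In control animals 1 of the 47 was called, and it was lower in stem libraries, where 6.26% of 16182 genes tested were called in either direction. In all 34 of 47 had negative values (48.1% of all genes), with a median of -0.13. The gene called was Rrm2, at 90.5, 99.2, 142 and 139 CPM in het stem against 200, 171, 220 and 334 in het TA libraries. Its groups did not overlap, and it was 1.96-fold lower in stem libraries (-0.97 ± 0.23, adjusted p = 0.0377). The call was lost when any of the 4 animals was left out, with adjusted p from 0.086 to 0.123. Tk1 stood at 67.2, 81.6, 104 and 79.1 CPM in stem and 138, 90.0, 113 and 130 in TA libraries, with overlap (-0.51 ± 0.18, adjusted p = 0.138). Mcm6 (-0.05 ± 0.16), Pcna (-0.24 ± 0.17) and Pola2 (0.00 ± 0.23), the accessory subunit of polymerase alpha, were not called (adjusted p = 0.909, 0.488 and 0.999). The sign of Pola2 varied with the scaling.

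None of the 47 was called between stem and TA libraries of knockout animals (edgeR, where 4.61% of 15954 genes were called). At an unadjusted p below 0.05, 4 were higher and 2 lower, where 1432 and 1412 of the 15954 genes were. Negative values were held by 16 of the 47 (49.5% of all genes). With the animal as replicate block, which the design supports since each animal gave both fractions, 3 were called, where 8.94% of all genes were. They were Pola2, higher in stem (0.76, adjusted p = 0.0142), and Rrm2 and Tk1, lower in stem (-0.58, adjusted p = 0.0151, and -0.53, adjusted p = 0.0439). DESeq2 called 2, Pola2 and Tk1, and 10.0% of all genes. Neither count exceeds its background share. Rrm2 stood at 105, 70.1, 96.8 and 123 CPM in the hom stem libraries and 154, 92.9, 152 and 195 in the TA libraries of the same animals. Pola2 ran the other way, at 51.5, 39.7, 42.1 and 34.4 CPM in stem and 33.7, 22.8, 23.7 and 19.3 in TA libraries. The lowest stem value and the highest TA value of Pola2 nearly met (they overlapped on the scale of the fit), and each animal had more in stem. Rrm2, Tk1 and Tyms, the thymidylate synthase, were the 3 members lower in the stem than in the TA library of all 8 animals. That pattern was picked out after the values were seen and was not counted over all genes. Mcm6 had 0.38 ± 0.19 in hom (adjusted p = 0.341). Tyms itself was not called in either genotype (-0.42, adjusted p = 0.338 in het, and -0.26, adjusted p = 0.564 in hom). Rrm1, which encodes the partner subunit of Rrm2, was lower in stem in 3 of 4 het animals and in 0 of 4 hom animals. Mcm5, Rfc5, Prim2, Pold3 and Chaf1b had the same pattern, and its share over all genes was not counted. None of the 47 was called when the genotype effect in TA was set against that in stem (edgeR).

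**Figure D3:**
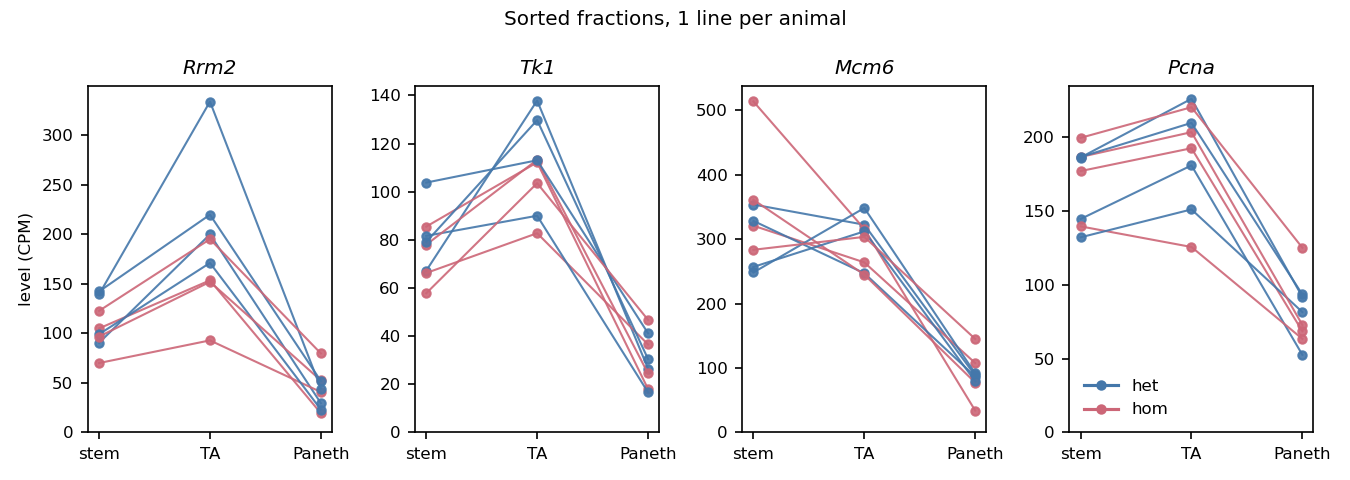
Level (CPM, linear axis from 0) of Rrm2, Tk1, Mcm6 and Pcna in the stem, TA and Paneth library of each of the 8 animals, 1 line per animal (het blue, hom red). Rrm2 and Tk1 peak in the TA library of every animal, and all 4 genes are at their lowest in the Paneth library of every animal.

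The genotype comparison within each fraction asks whether knockout changed these genes. In TA libraries most of them had lower values in hom, and none was called. Of the 47 genes 42 had negative log2 fold changes, where 50.0% of 15925 genes tested did, with a median of -0.22 against 0.00 over all genes. The edgeR test called 0 of the 47, and 0.0% of all genes. At an unadjusted p below 0.05, 7 were lower (3.0% of all genes) and 0 higher: Cdc6, Cdt1, Mcm10, Clspn, Rrm1, Rrm2 and Pola2. In 3 genes, Cdc6, Clspn and Pold3, every hom library lay below every het library on the scale of the TA fit, against 2.07% of all genes. Pold3 did so narrowly: on the scale of all 24 libraries BP04 (48.7 CPM) and the het library of BO27 (48.6 CPM) met. DESeq2 called 1 of the 47 (Cdc6, adjusted p = 0.0332) and 121 of 18567 genes (0.652%).

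Cdc6 stood at 38.9, 30.4, 33.4 and 42.6 CPM in het and 22.6, 19.4, 21.9 and 27.6 in hom TA libraries. The groups did not overlap, and the fitted level was 1.58-fold lower in hom (-0.66 ± 0.16, edgeR adjusted p = 0.526). Clspn was at 19.2, 19.1, 20.9 and 27.1 CPM in het and 13.2, 15.7, 16.2 and 17.1 in hom (-0.46 ± 0.17, adjusted p = 0.795). Its hom values were all lower, the nearest pair being 19.1 and 17.1 CPM. For Rrm1, the large subunit of ribonucleotide reductase, het values were 217, 185, 217 and 274 CPM and hom values 178, 145, 187 and 181. Rrm2 stood at 200, 171, 220 and 334 in het and 154, 92.9, 152 and 195 CPM in hom. In both reductase genes the ranges overlapped by 1 het library, BO27, and log2 fold changes were -0.36 ± 0.15 and -0.63 ± 0.25 (adjusted p = 0.81 for both). Pola2 was at 45.1, 28.4, 32.3 and 35.2 CPM in het and 33.7, 22.8, 23.7 and 19.3 in hom (-0.49 ± 0.21, adjusted p = 0.815), with BN45 inside the het range. Mcm6 and Pcna differed by less than their SE, at -0.12 ± 0.14 and -0.04 ± 0.19, and the sign of Pcna turned in 3 of the fits that left out 1 animal.

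**Figure D4:**
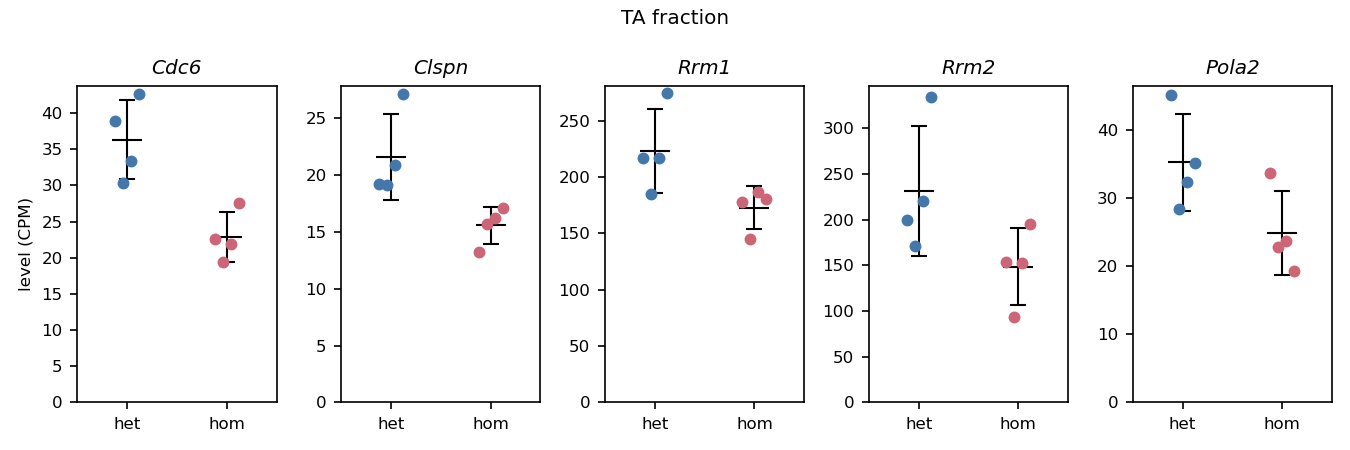
Level (CPM, linear axis from 0) of the 5 genes of smallest p in the TA genotype comparison, by genotype. Points are the 4 animals of a group, and the black mark and bar give mean and SD. Het and hom points are separate for Cdc6 and Clspn and overlap for Rrm1, Rrm2 and Pola2.

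The lower TA values were spread over roles: 9 of 10 licensing genes, 4 of 5 for helicase activation, 5 of 5 for clamp and loader, 6 of 8 polymerase and primase genes, 4 of 4 lagging strand genes, 5 of 5 nucleotide genes, 5 of 6 for chromatin copying and 4 of 4 fork genes were negative. The role medians ran from -0.26 (fork and checkpoint) to -0.07 (polymerases and primase). Single libraries weighed on the size. BO25 was the lowest of all 8 TA libraries in 28 of 47 genes, and BP03 was the highest in 21. Without BO25 the median was -0.12 with 31 negative, and without BP03 it was -0.12 with 37 negative. When each hom animal was set beside the het animal of neighbouring number, 40, 37, 34 and 39 of the 47 were lower in hom, but the labels do not say that these animals were littermates or handled together. The share of all genes lower in each of these pairs was not counted. The summed mitosis list was 1662 to 1878 CPM in hom and 1814 to 1993 in het TA libraries, and the Paneth marker list took 0.611% of counts in BN45 against 0.0801% to 0.195% in the other 7 TA libraries. The part of cell composition in the TA values was not tested.

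In stem libraries the 47 genes showed no common direction between genotypes. The edgeR test called 0 (0.0125% of 16056 genes), and DESeq2 called 0. At an unadjusted p below 0.05, 2 were higher and 1 lower, where 443 and 638 of the 16056 genes were. Negative values were held by 20 of 47 (49.5% of all genes), with a median of 0.03. Hells stood at 117, 158, 136 and 172 CPM in het and 189, 181, 247 and 202 in hom stem libraries. It was the only one of the 47 with every hom library above every het library (1.86% of all genes), at 0.48 ± 0.16 (adjusted p = 0.575). Chaf1b, a CAF-1 subunit, was at 32.3, 30.7, 23.2 and 27.9 CPM in het and 36.2, 41.96, 42.6 and 31.2 in hom. Only BP04 of the hom libraries lay inside the het range, and the difference was 0.41 ± 0.18 (adjusted p = 0.737). Pold1 was lower in 3 of the hom libraries, at 14.8, 14.9, 18.04 and 12.7 CPM in het and 7.52, 8.11, 9.56 and 14.8 in hom. The value of BP04 fell inside the het range, and the difference was -0.60 ± 0.25 (adjusted p = 0.722). Prim2 stood at 44.3, 33.7, 45.6 and 43.9 CPM in het and 58.6, 42.6, 46.4 and 64.4 in hom, with BO25 inside the het range (0.33 ± 0.18, adjusted p = 0.808). Pole, the catalytic subunit of polymerase epsilon, was at 14.4, 20.1, 14.9 and 16.3 in het and 16.98, 24.98, 25.8 and 16.5 CPM in hom. Its groups overlapped through BN45 and BP04 (0.35 ± 0.22, adjusted p = 0.841). Mcm6 was high in BN45 (514 CPM, against 284 to 361 in the other hom libraries and 248 to 354 in het), and its difference was 0.31 ± 0.20 (adjusted p = 0.859). Pcna (0.10) and Rrm2 (-0.27 ± 0.21) were not called either. Orc1 had a single low library, BO57, at 0.86 CPM against 5.69 to 11.1 in the other stem libraries.

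In Paneth libraries most values were positive, and none was called. Of the 47 genes 10 had negative values (50.4% of 16108 genes tested), with a median of 0.16, and 0 were called by edgeR (0.0% of all genes) or DESeq2, or had an unadjusted p below 0.05. Without BP04 the median was -0.04 and 28 were negative, and with total counts it was 0.00 with 24 negative, where the median of all genes shifted by -0.17. BP04 had the highest value of the 8 Paneth libraries in 30 of 47 genes, and BN45 the lowest in 19. The 7 stem markers followed the same order, at 9955 CPM in BP04, 3592 in BN45 and 4069 to 6801 in the other 6, while the 8 Paneth markers took 25.5% of counts in BP04, 45.9% in BN45 and 8.18% to 35.7% in the others. Their part in the result was not tested. Fen1 had the largest difference, with 0.372, 0.413, 0.402 and 0.224 CPM in het and 0.238, 1.02, 0.623 and 2.12 in hom (1.48 ± 0.76, adjusted p = 1.0), on counts as low as 3. BP04 was the high one, and BN45 lay with the het libraries. Chaf1b stood at 10.3, 8.17, 14.5 and 11.2 CPM in het and 5.01, 18.6, 16.2 and 27.8 in hom (0.60 ± 0.43). Uhrf1, which guides Dnmt1 to newly copied DNA, stood at 14.8, 16.8, 13.2 and 18.9 in het and 8.58, 12.9, 7.43 and 18.1 CPM in hom (-0.45 ± 0.32). In both genes the hom libraries spread wider than the het libraries and covered or reached them. Mcm2 was at 17.4, 33.5, 14.6 and 30.2 CPM in het and 20.6, 27.5, 31.8 and 51.4 in hom (0.45 ± 0.34). Ung, the uracil glycosylase, was at 5.21, 4.27, 2.52 and 11.3 in het and 5.32, 9.29, 6.89 and 14.1 CPM in hom (0.60 ± 0.50). The highest value of both was that of BP04, and the groups overlapped. Mcm6 (0.05 ± 0.34), Pcna (0.04 ± 0.26) and Rrm2 (0.35 ± 0.38) differed by less than their SE, and the adjusted p of all 8 was 1.0.

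**Figure D5:**
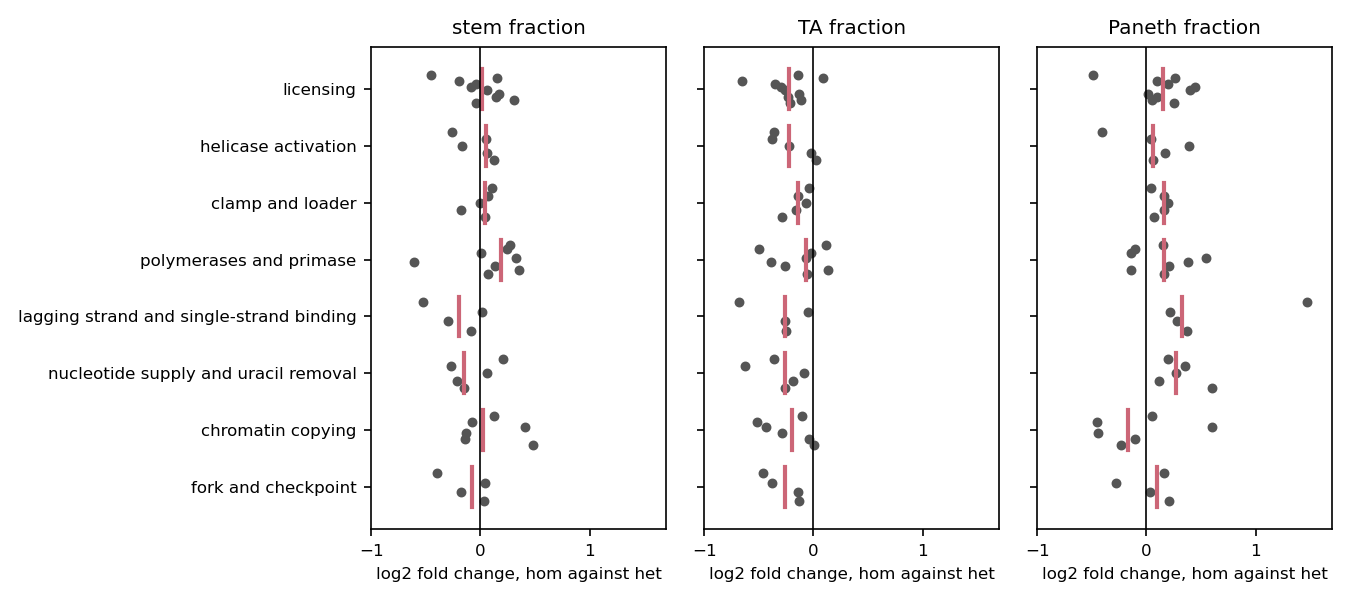
Log2 fold change of hom against het for each of the 47 genes (points) in stem, TA and Paneth libraries, by role. Red bars are medians of the role, and the black line is at 0. In TA libraries all 8 role medians lie below 0, from -0.26 to -0.07, and none of the points passed the adjusted threshold in any fraction.

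Whether the genotype difference itself varied between fractions was tested in 1 model of all 24 libraries. That model shares 1 spread per gene among the 6 groups, so the wider spread of Paneth libraries also enters the TA minus stem test. The fit does not use the sharing of animals between fractions. For TA minus stem, 40 of 47 values were negative (50.2% of 19396 genes), with a median of -0.18. The edgeR test called 0 (0.0% of all genes), and DESeq2 called 0. At an unadjusted p below 0.05, 478 of all genes were higher and 289 lower, and of the 47 only 1 was lower. That gene was Pola2 (-0.75 ± 0.36, adjusted p = 1.0), which was lower in hom TA and higher in hom stem libraries than in het. The next smallest p values were those of Chaf1b (-0.86 ± 0.46), Pold3 (-0.41 ± 0.24), Rrm1 (-0.59 ± 0.41) and Hells (-0.49 ± 0.38). For Paneth minus stem, 18 were negative (50.3% of all genes), and 0 were called (0.0% of all genes, with 0 by DESeq2 too). At an unadjusted p below 0.05, 2 were higher, where 641 of all genes were higher and 578 lower. Those 2 were Pold1 (0.99 ± 0.37, adjusted p = 0.654) and Fen1 (2.03 ± 0.82, adjusted p = 0.698). Hells (-0.71 ± 0.38), Mcm2 (0.54 ± 0.37) and Rrm2 (0.63 ± 0.47) followed. Without BP04 that median turned from 0.12 to -0.09. For Paneth minus TA, 7 were negative (50.3% of all genes), with a median of 0.35, and 0 were called (0.00516% of all genes; DESeq2 also 0). There 4 were higher at an unadjusted p below 0.05, where 413 of all genes were higher and 552 lower. Those 4 were Fen1 (2.203 ± 0.82), Chaf1b (1.07 ± 0.47), Rrm2 (1.01 ± 0.47) and Pold1 (0.79 ± 0.37). Their adjusted p values were 0.936 for Fen1 and 0.99 for the others, and Mcm2 followed at 0.77 ± 0.37. Mcm6 and Pcna lay within 1 SE of 0 for Paneth minus stem (-0.24 ± 0.39 and -0.07 ± 0.32) and for Paneth minus TA (0.20 ± 0.39 and 0.10 ± 0.32). For TA minus stem they had -0.44 ± 0.39 and -0.16 ± 0.32.

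The spread among animals was wider in Paneth libraries than in the other fractions. The median coefficient of variation of the 47 genes was 17.5% to 20.1% in the 4 stem and TA groups, and 34.1% in het and 40.6% in hom Paneth cells. Per kilobase of exonic length in het TA libraries, Rfc4, a clamp loader subunit, was the highest at 117 ± 19.3 CPM per kb, followed by Rrm2 (83.4 ± 25.8), Pcna (80.0 ± 13.8), Tipin (71.8 ± 9.25) and Mcm6 (65.9 ± 9.23). Each of these neighbours differed by less than the larger of their SDs, except Rfc4 from Rrm2. The lowest were Fen1 (1.75 ± 0.624), Pole (1.58 ± 0.15) and Chaf1a (0.971 ± 0.288), of which Fen1 and Chaf1a are the members with large overlaps. Rfc4, Pcna and Tipin, a partner of Timeless at the fork, were also the 3 highest in Paneth libraries of both genotypes. In het stem libraries the order began with Rfc4 (102 ± 28.3), Tipin (84.4 ± 18.4), Pcna (67.7 ± 11.7) and Mcm6 (63.6 ± 11.2), and Rrm2 stood seventh at 42.5 ± 9.69 CPM per kb. The length counts all annotated exons of a gene, from 1349 bases (Gins4) to 13709 (Dtl), so these orders depend on the annotation. Rrm1, with 11012 bases, ranked 19 in het TA libraries at 20.3 ± 3.36 CPM per kb. Its CPM lay above that of Pcna, with 2400 bases, in each het TA library.

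Another 52 genes of replication and its regulation were measured beside the 47. Between het TA and Paneth libraries 23 were lower and 2 higher, with a median of -0.76, among them the licensing inhibitor Gmnn (-1.73, adjusted p = 0.000404), the origin kinase Cdc7 (-2.06, adjusted p = 0.00754) and Pold2 (-2.20, adjusted p = 0.000929). The background was 11.8% lower and 17.4% higher over all genes tested. The genes that rose were Pold4 and Rrm2b. Pold4, the smallest subunit of polymerase delta, stood at 13.2 ± 1.61 CPM in Paneth and 5.87 ± 1.15 in TA libraries (1.19 ± 0.27, adjusted p = 0.00828). Rrm2b, the p53-inducible small subunit of ribonucleotide reductase, stood at 11.7 ± 5.49 and 3.86 ± 0.676 (1.62 ± 0.37, adjusted p = 0.00937). In hom, Pold4 was the 1 gene of the 52 called higher than in TA libraries (1.55, adjusted p = 0.00744; 16.3% of all genes), and Rrm2b was not called (7.58 ± 5.33 against 2.91 ± 1.88 CPM; 1.41 ± 0.62, adjusted p = 0.116). Between stem and TA libraries in het, Cdca7, which recruits Hells to chromatin, was higher in stem (473 ± 162 against 171 ± 48.3 CPM; 1.46 ± 0.27, adjusted p = 0.0121), and the E2F genes E2f2 and E2f8 were lower (-2.00, adjusted p = 0.0044, and -0.94, adjusted p = 0.0444). In hom, Cdca7 and E2f2 were called in the same directions (1.41, adjusted p = 0.00711, and -2.23, adjusted p = 0.0157). No others of the 52 were called between stem and TA libraries. The calls were 1 higher and 2 lower in het, where 6.26% of all genes were called. They were 1 higher and 1 lower in hom, where 4.61% were. In the TA genotype comparison 37 of these 52 had negative values (50.0% of all genes), with a median of -0.07. The edgeR test called 0 of them, and 2 were lower at an unadjusted p below 0.05 (3.0% of all genes). In stem libraries 26 of the 52 were negative (49.5% of all genes), and 0 were called (0.0125%). There 1 was higher and 2 lower at an unadjusted p below 0.05, where 443 and 638 of 16056 genes were. Orc5 stood at 95.4 ± 7.87 CPM in het and 52.7 ± 15.9 in hom stem libraries. Mcm8 stood at 17.95 ± 3.78 and 8.62 ± 2.30. In Paneth libraries 30 of the 52 were negative (50.4% of all genes), and 0 were called.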

How the data were processed

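RNA of 24 sorted-cell libraries was analysed from 1 deposited table of raw counts per gene, in which the authors counted fragments with featureCounts 2.0.1 on Ensembl 98 gene models of mm10 (unstranded, read pairs, mapping quality of at least 1, fragments hitting more than 1 gene not counted), per the file headers. Demultiplexing used bcl2fastq 2.20.0, per the submitters' processing notes, and no source used here states the aligner's version. Per the labels' protocols, cDNA came from a low-input template-switch method with 17 PCR cycles. No molecular identifiers are described there, so amplification copies may be counted. Exonic length is another deposited column of that table. The 92 spike-in rows held at most 6 counts and were left out.

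Counts were tested with edgeR 4.0.16 (R 4.3.3; filterByExpr, TMM, quasi-likelihood F test, 4 libraries against 4), with Benjamini-Hochberg adjustment over all genes and a threshold of 0.05. The 3 comparisons of genotype effects between fractions used 1 fit of 24 libraries. SE is the absolute log2 fold change over the square root of F. Alternatives were other scaling and filters, DESeq2 1.42.0, leaving out each animal, and replicate blocks. The fractions of 1 animal are paired by origin; deviations of 2 fractions of 1 animal correlated at -0.0184 to 0.247. The scripts were tested on simulated data. The members and gene lists were chosen with earlier results of these data known. Named genes are the 5 of smallest p in each genotype comparison, any gene past the threshold there (edgeR called none), the 3 largest called falls or rises and the member nearest 0 in each fraction comparison, Mcm6, Pcna and Rrm2, and up to 2 per role by level; others named were chosen after their values were seen. Genes overlapping on either strand are uncertain because counting was unstranded.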

Additional observations from a re-analysis of the deposited data

Results flagged for a closer look

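In each group of 4 libraries, a gene was listed where 1 library stood far outside the spread of the other 3. Of 90 gene and group pairs examined, 2 met this, and chance alone gives about 5%. Those 90 were only a part of the pairs that the 47 genes form in 6 groups, so outlying libraries of other genes are not listed. Rrm1, for example, stood at 121 CPM in the het Paneth library of BO58, against 41.0 to 46.5 in the other 3. Prim2, the large primase subunit, stood at 33.7 CPM in the het stem library of BO27, below 43.9 to 45.6 in the other 3 het stem libraries. Pcna, the replication clamp, stood at 125 CPM in the hom Paneth library of BP04, above 63.4 to 72.8 in the other 3 hom Paneth libraries. BP04 is also the Paneth library with the highest value in 30 of the 47 genes.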

How the results depend on the processing

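The falls in Paneth libraries kept their direction for the members' median under every alternative tried. Without 1 animal, the members called lower were 14 to 34 for Paneth against TA in hom and 22 to 41 for Paneth against stem in hom, and 0 to 0 between stem and TA in het. Over all genes, those called lower without 1 animal were 922 to 1503 for Paneth against TA in hom, and 1303 to 1700 for Paneth against stem in hom. Between stem and TA in hom, 1 was called with a mean of at least 5 CPM, 3 with the animal as replicate block and 2 with DESeq2. In TA libraries DESeq2 called 1 between genotypes. The animal block changed no call of members between genotype effects. The replicate block of neighbouring animal numbers gave 0 calls between genotypes in each fraction. Those pairs correlated at -0.000816 to 0.227. Fractions of 1 animal correlated at -0.0184 to 0.247, so the size does not decide whether the numbers pair the animals. Every hom library correlated best with its neighbour in stem and TA libraries. In Paneth libraries this held for BN45 and BO57 and not for BO25 and BP04. Over all genes, that block raised edgeR counts at an unadjusted p below 0.05. In TA they went from 464 higher and 478 lower to 789 and 802. In stem they went from 443 and 638 to 783 and 995, and in Paneth libraries from 148 and 220 to 221 and 272.

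Signs were followed for Mcm6, Pcna, Rrm2 and the genes picked by p or by size of change in each comparison. Among these, signs turned only for small differences that passed no threshold, and the cause was not tested. Other members turned as well and are not listed. Between genotypes in TA, 42 of the 47 were negative in the main fit and 31 without BO25. With total counts, hom against het in Paneth libraries was -0.0014 for Mcm6 and -0.1455 for Pcna, Mcm10 between stem and TA in hom was -0.0052, Pold1 between Paneth and stem in hom was -0.1627, and Pcna for Paneth minus TA was -0.087. Mcm6 in Paneth libraries was -0.0959 with the block of neighbouring numbers. Pola2 between stem and TA in het was -0.0039 with RLE factors, -0.0003 with no filter, -0.0247 with the animal block and -0.0069 with DESeq2. Pold1 between Paneth and TA in hom was 0.031 with a mean of at least 5 CPM.
Without 1 animal at a time, values ranged from -0.1378 to 0.1046 for Pcna between genotypes in TA, -0.2539 to 0.304 for Mcm6 and -0.211 to 0.1492 for Pcna between genotypes in Paneth libraries, -0.0811 to 0.1346 for Pola2 and -0.1883 to 0.0855 for Mcm6 between stem and TA in het. They ranged from -0.1021 to 0.1061 for Mcm10 between stem and TA in hom and from -0.1862 to 0.0809 for Pold1 between Paneth and TA in hom. For Paneth minus stem they ranged from -0.693 to 0.2203 for Mcm6 and -0.2676 to 0.0303 for Pcna, and for Paneth minus TA from -0.103 to 0.526 and -0.0782 to 0.2064.
Fen1, with as few as 3 counts, is the member that depth limits most, and 4 animals per group limit what the genotype tests could call.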
